A study of Mus musculus with 12 samples.

Results

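The genes described here are the 42 members of an ATF4 amino acid stress response module, a list put together by function. It was chosen with earlier results of these data known. Counts of members set beside the shares of all genes are therefore a description and not an independent test. A member was read from the probe set that the array annotation pairs with that gene alone and, where several did so, from the one with the highest mean over all arrays. By this rule 41 of the 42 members were measured, of 18194 genes measured on the array. The exception was Pycr1, an enzyme of proline synthesis, which had no probe set of its own. No filter on low values was applied. The members fall into 7 transcription factors, 6 stress effectors and feedback genes, 3 secreted and surface targets, 11 synthesis enzymes, 7 amino acid transporters and 8 tRNA synthetases.

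Cells that run short of amino acids activate the kinase GCN2, which phosphorylates the translation factor eIF2. General translation then falls, while the mRNA of the transcription factor ATF4 is translated more. ATF4 pairs with C/EBP proteins on composite DNA elements and raises genes for amino acid synthesis, uptake and tRNA charging, together with genes such as Ddit3 and Trib3 that restrain the response or favour cell death. In melanoma and other tumors this program supplies serine, glycine, asparagine and cysteine for growth. An array reads mRNA only, so the translation of Atf4 was not measured.

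RNA came from B16-OVA, a melanoma line of the mouse that was made to express ovalbumin as a model antigen, exposed in culture to 100 nM of the MEK inhibitor GDC-0623 (MEKi) or to its solvent DMSO, and each group held 3 arrays: MEKi at 72 h, DMSO at 72 h, MEKi at 24 h and DMSO at 24 h. All cells were of this 1 line in monolayer culture and were seeded the day before the compound was added. The comparisons ask how the module stood with MEK blocked, how it changed with time in culture, and whether the effect of MEKi differed between the harvests. The labels do not say that the 3 replicates of a group were separate cultures, so the p-values speak only of the spread among these arrays, and that spread may be technical.

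The values were log2 RMA signals, on which a difference of 1 is a 2-fold change. Array medians lay between 5.31 and 5.42, arrays of 1 group correlated at 0.996 to 0.998 across probe sets and arrays of different groups at 0.987 to 0.997. All 8 melanocyte markers were bright, with means of 10.60 to 14.30, while the 7 measured immune, 6 fibroblast and 5 endothelial markers had means of 2.96 to 6.41. Of 7 genes known to follow ERK output, 4 were lower in MEKi at 72 h and 7 at 24 h, among them Dusp6 with log2 differences of -1.29 at 72 h and -1.41 at 24 h. On MEKi replicate 3 at 72 h, Egr1 was 9.87, against 5.91 and 6.47 on the other MEKi arrays and 10.30 to 10.91 in DMSO. Fos was 9.42 there, against 7.65 and 8.06, with 8.79 to 9.52 in DMSO. Dusp6 (9.82, against 9.85 and 9.51) and Ccnd1 (9.72, against 9.82 and 10.03) did not stand higher on that array. At 24 h, Etv5 was 6.08 on MEKi replicate 3, against 4.35 and 4.22, with 8.86 to 8.99 in DMSO. The number of arrays limits the precision.

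In a table of promoters from RefSeq (GRCm38.p6), 35 of the 42 members had an entry, each covering 250 bases before and 50 bases after an annotated transcript start. These windows were searched on both strands for TGATGNAA, the core of the C/EBP-ATF response element, which reads TTNCATCA on the other strand. The motif lay in a window of 12 of the 35 members (34.3%) and of 1219 of all 27025 genes in the table (4.51%), or in 3.97% of all 32851 windows. In 8 of the 12 members it lay wholly before the outermost start of the gene, and in 2, Aars and Vldlr, wholly before an internal start only. The stretches below show it for some of the members whose values are given later, 6 that rose with time and Fgf21, which was not called. Each runs 5′ to 3′ in the direction of the gene, with the motif in capitals.

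Nupr1 (chr7:126625557-126625596, minus strand, motif 110 bases before the start): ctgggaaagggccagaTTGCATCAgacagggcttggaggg
Atf3 (chr1:191183420-191183459, minus strand, motif 110 bases before the start): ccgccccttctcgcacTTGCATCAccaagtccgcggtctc
Chac1 (chr2:119351033-119351072, plus strand, motif 193 bases before the start): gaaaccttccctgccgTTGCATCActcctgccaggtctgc
Vldlr (chr19:27216804-27216843, plus strand, motif 200 bases before an internal start that lies 540 bases after the outermost one): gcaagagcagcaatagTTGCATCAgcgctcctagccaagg
Asns (chr6:7693210-7693248, minus strand, motif 23 bases before the start): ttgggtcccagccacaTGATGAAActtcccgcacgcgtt
Aars (chr8:111033714-111033753, plus strand, motif 112 bases before an internal start that lies 6064 bases after the outermost one): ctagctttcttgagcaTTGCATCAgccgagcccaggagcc
Fgf21 (chr7:45615606-45615645, minus strand, motif 139 bases before the start): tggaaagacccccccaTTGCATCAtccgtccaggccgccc

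Of these stretches, 6 carry the same 8 letters, TTGCATCA, and that of Asns carries TGATGAAA. The other members with a match were Pycr1, Gars and Tars, where it lies before the start, Slc1a4, where it spans the start, and Trib3, where it lies just after it. A match describes the letters of the window and not the binding of a factor. Of a list of 11 further amino acid response targets, 4 of the 8 with a promoter entry held the motif, against none of the 18 ER chaperone and XBP1 genes with an entry.

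The largest differences of the module were between the harvest times. At 72 h, 31 of the 41 measured members were called higher than at 24 h in MEKi, and 33 in DMSO, where called means an adjusted p under 0.05 by limma with Benjamini-Hochberg adjustment over 45037 probe sets. Of all 18194 genes, 13.5% were called higher and 16% lower with time in MEKi, and 14.2% higher and 16.9% lower in DMSO. Mars was called lower with time in MEKi, and 0 members were in DMSO (0 also at an unadjusted p under 0.05, by limma). Of all 18194 genes, 3865 were lower with time in DMSO at that unadjusted p. The members' median log2 difference was 0.76 in MEKi and 0.92 in DMSO, beside 0.04 over all genes in each. In RNA pooled over a culture, a change in the mix of cells and a change in RNA per cell cannot be told apart. Rises of at least 2-fold were called for 15 members in MEKi and for 19 in DMSO, beside 0.879% and 1.04% of all genes. In both MEKi and DMSO 30 of the 41 measured members rose, beside 1290 (7.09%) of all 18194 genes. The 30 were 96.8% of the 31 members called higher in MEKi and 90.9% of the 33 in DMSO. Over all genes, the 1290 stood against 2460 called higher in MEKi and 2581 in DMSO.

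With each array left out in turn, 27 of the 32 calls with time in MEKi and 30 of the 33 in DMSO held throughout. Those that ended at least once were Psat1, Cth, Nars, Mars and Eprs in MEKi and Shmt2, Nars and Tars in DMSO. In MEKi, the calls of Psat1, Cth, Nars and Eprs ended without replicate 1 or 2 at 24 h, those of Psat1, Nars and Eprs also without replicate 2 or 3 at 72 h, and those of Nars and Eprs also without replicate 3 at 24 h. In DMSO, the calls of Shmt2, Nars and Tars ended without any 1 of the 3 arrays at 24 h, those of Shmt2 and Nars also without replicate 1 at 72 h, and those of Shmt2 and Tars also without replicate 3 at 72 h. Centring each array on its median, which moves the share of higher calls over all probe sets to 27.7% in MEKi and 29.7% in DMSO, against 44.9% and 44.0% as deposited, left 29 members higher and 1 lower in MEKi and 30 higher and 0 lower in DMSO. The signal at the 3′ minus that at the 5′ end of the control transcript Dap was 1.34 to 1.47 on the 72 h arrays, against 1.96 to 2.16 on the 24 h arrays. The same measure of actin, a transcript of the cells, was 0.13 to 0.21 at 72 h and 0.25 to 0.30 at 24 h, also apart, and that of Gapdh was -0.11 to -0.04 at 72 h and -0.07 to -0.02 at 24 h, with overlap. Their part in the time results was not tested. Everything else that differed between the harvests cannot be told apart from time.

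1 array stood out at 72 h. DMSO replicate 3 was the highest of all 12 arrays for 35 of the 41 members and the highest of its group for 40. Within MEKi at 72 h, replicate 3 was the highest for 31 members and replicate 1 the lowest for 33. The ERK output genes Egr1 and Fos were also highest on that replicate 3 among these MEKi arrays, and a link with the members was not tested. Relative to the DMSO mean at 24 h, the members' median was 0.40, 0.51 and 0.75 on the MEKi arrays and 0.93, 0.78 and 1.13 on the DMSO arrays at 72 h, and -0.20, -0.18 and -0.21 on the MEKi arrays and 0.06, -0.04 and -0.02 on the DMSO arrays at 24 h. The MEKi arrays thus lay below every DMSO array of their own time at both harvests. Without DMSO replicate 3 at 72 h, 31 of the 33 rises with time in DMSO kept their call.

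**Figure D1:**
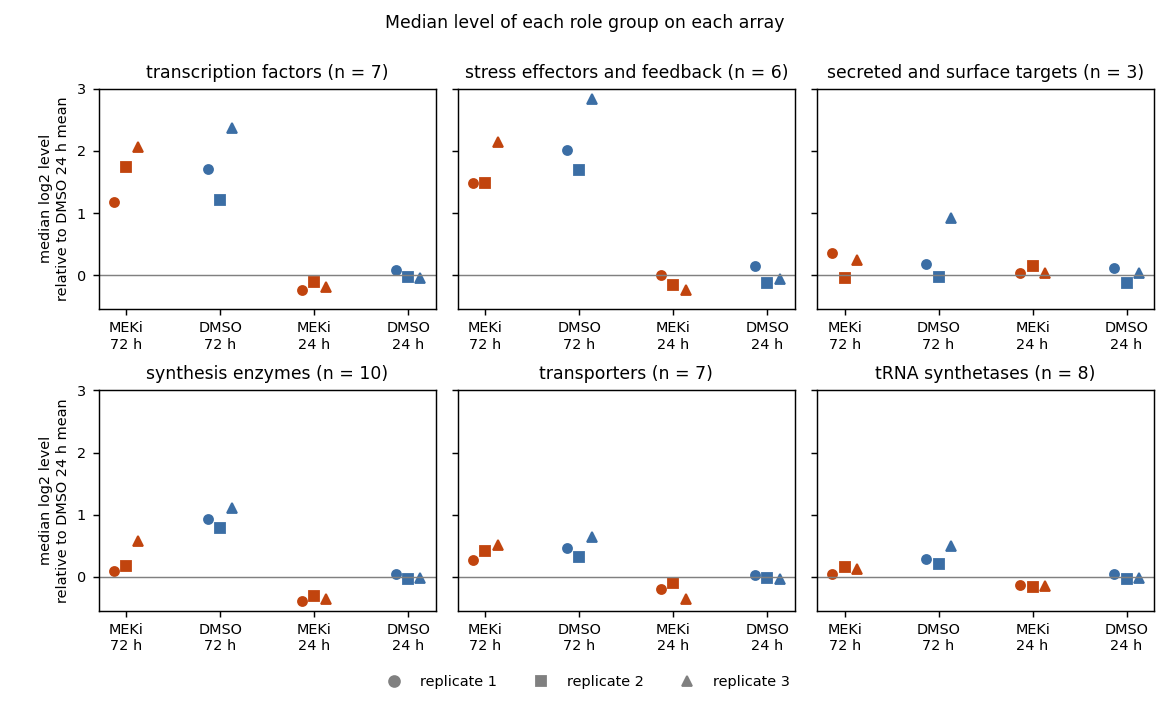
Median log2 level of each role group on each array, relative to the DMSO mean at 24 h (vertical axis), for the 4 groups (horizontal axis); each point is 1 array, with its replicate number by symbol. The medians of the transcription factors and of the effectors reach 2.37 and 2.84 on DMSO replicate 3 at 72 h, while those of the tRNA synthetases lie at or below 0.49.

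Part of the module was lower in MEKi at both times. At 72 h, 14 members were called lower and 0 higher than in DMSO (21 and 0 at an unadjusted p under 0.05, by limma), against 5.14% of all genes lower and 4.03% higher. Of all 18194 genes, 2180 were lower and 2052 higher at 72 h at that unadjusted p. At 24 h, 13 were called lower and 2 higher, against 5.86% lower and 5.01% higher. The members' median log2 difference was -0.40 at 72 h and -0.17 at 24 h, beside 0.01 over all genes at each time. The 72 h and 24 h fits share no arrays. Of the 41 measured members, 9 were lower in both, beside 311 (1.71%) of all 18194 genes. Over all genes, the 311 stood against 935 called lower at 72 h and 1067 at 24 h. The 9 members were 64.3% of the 14 lower at 72 h and 69.2% of the 13 lower at 24 h. These 9 were Asns, Psat1, Phgdh, Shmt2, Mthfd2, Aldh18a1, Cth, Slc7a5 and Mars, so 7 of them were synthesis enzymes.

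The calls of MEKi against DMSO lay close to the threshold for many members. Leaving out 1 array at a time kept 8 to 13 of the 14 calls at 72 h and 7 to 13 of the 15 calls at 24 h. In a fit with the replicate number as a block, 18 members were lower at 72 h, with Trib3 (-0.72, adjusted p = 0.0204), Cebpg (-0.54, adjusted p = 0.0156), Slc7a1 (-0.49, adjusted p = 0.0132) and Psph (-0.46, adjusted p = 0.0358) added by limma with the block. Equal numbers were not established to mark pairs at 72 h. The block, here and in each block value below, is therefore an assumption. Of the 27 members with several probe sets, none had one called against the sign of its brightest one.

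**Figure D2:**
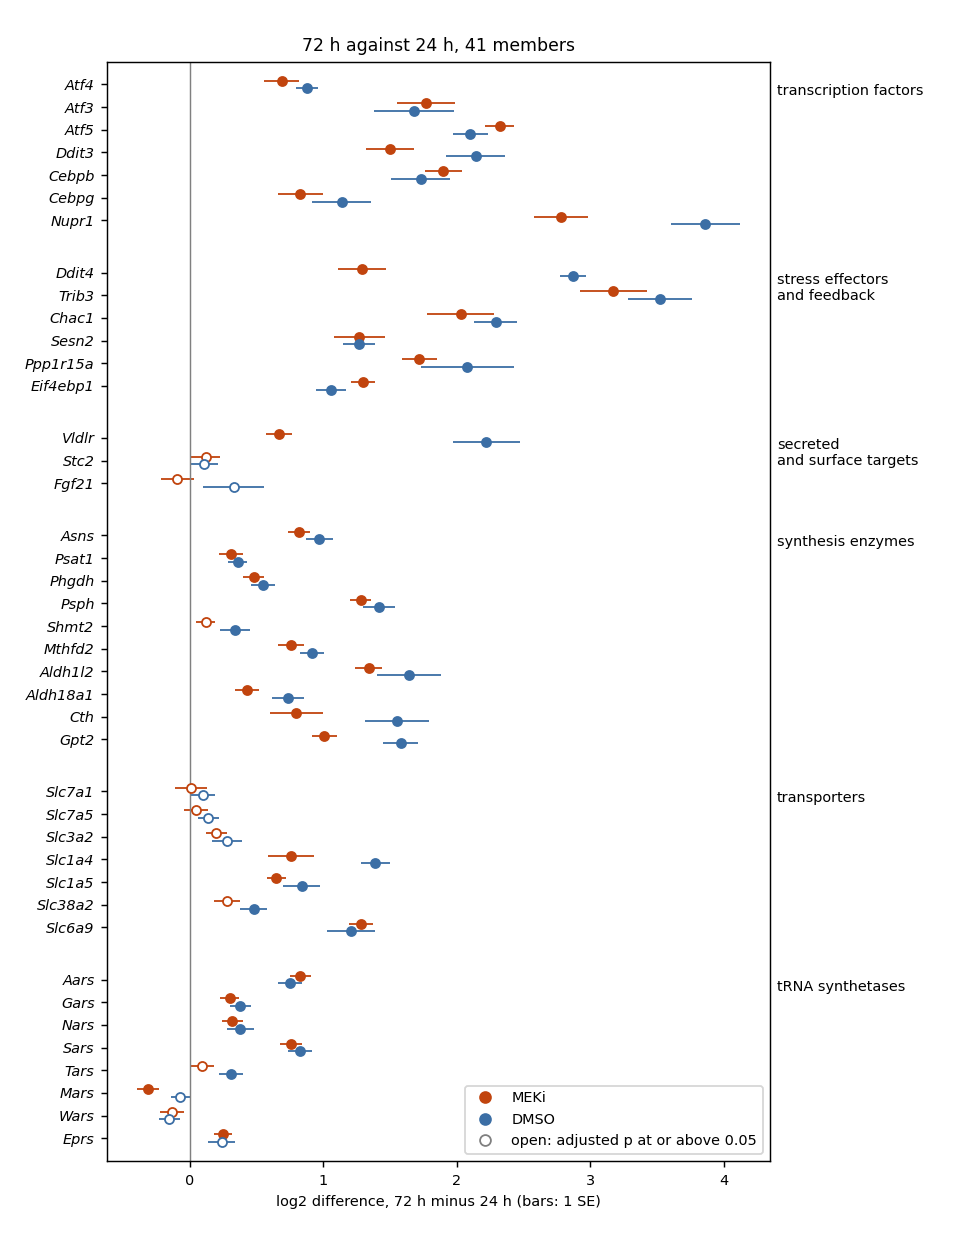
Log2 difference of 72 h minus 24 h (horizontal axis) for the 41 measured members by role, in MEKi and in DMSO; points are estimates, bars 1 SE, and filled points have an adjusted p under 0.05. The farthest points are those of Nupr1 at 3.86 in DMSO and Trib3 at 3.52 in DMSO, and Mars in MEKi is the filled point below 0.

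All 7 transcription factors rose with time in MEKi and in DMSO, with median log2 differences of 1.77 and 1.73. With MEKi at 72 h, none was called by its brightest probe set in the fit of all 6 arrays without the replicate block. Cebpg was lower with the block (-0.54, adjusted p = 0.0156), and 1 of its 3 probe sets was called lower without it. At 24 h Cebpb was lower and Nupr1 higher. Atf4, the regulator of the module, had log2 signals of 12.44, 12.74 and 13.04 in MEKi and 13.06, 13.02 and 13.25 in DMSO at 72 h. At 24 h it had 11.99, 12.12 and 12.04 in MEKi and 12.23, 12.24 and 12.21 in DMSO. All Atf4 values at 72 h lay above all those at 24 h, and MEKi differed from DMSO by -0.37 ± 0.14 (SE) at 72 h and -0.18 ± 0.06 at 24 h, with adjusted p of 0.169 and 0.127. With the replicate block the 72 h difference of Atf4 had an adjusted p of 0.066. Atf4 was called lower at 72 h without MEKi replicate 3. At 24 h it was called lower with brighter probe sets and with a trended and robust prior. In the fits as reported, its 3 probe sets gave -0.37 to -0.05 at 72 h and -0.18 to -0.11 at 24 h, with 0 called. The rise of Atf4 with time was 0.69 ± 0.13 in MEKi (adjusted p = 0.00453) and 0.88 ± 0.08 in DMSO (adjusted p = 0.000193). Over the 3 probe sets it was 0.35 to 0.98 in MEKi and 0.25 to 1.17 in DMSO, with all 3 called.

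Ddit3 encodes CHOP, which promotes death under lasting stress. It had 10.52, 11.08 and 11.40 in MEKi and 11.23, 11.11 and 12.10 in DMSO at 72 h, and 9.46, 9.58 and 9.47 in MEKi and 9.36, 9.36 and 9.30 in DMSO at 24 h. It rose 2.82-fold in MEKi and 4.41-fold in DMSO (adjusted p = 0.000341 and 0.000297), and the MEKi and DMSO arrays overlapped at 72 h. The difference between MEKi and DMSO was not called at 72 h (-0.48 ± 0.27, adjusted p = 0.370), where the other probe set of Ddit3 gave 0.17, nor at 24 h (0.16 ± 0.06, adjusted p = 0.163). Ddit3 and the synthetase gene Mars overlap by 71 bases on chromosome 10.

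Nupr1, a small stress-induced chromatin protein, had the largest rise of the module in DMSO and, after Trib3, the next largest in MEKi. It had 10.18, 10.31 and 10.97 in MEKi and 10.78, 10.33 and 11.56 in DMSO at 72 h, and 7.79, 7.90 and 7.42 in MEKi and 7.18, 6.84 and 7.08 in DMSO at 24 h. The log2 rise was 2.78 ± 0.20 in MEKi and 3.86 ± 0.26 in DMSO (adjusted p = 2.65e-05 and 6.74e-05). At 24 h every MEKi array lay above every DMSO array (0.67 ± 0.13, adjusted p = 0.0214), and at 72 h the groups overlapped (-0.40 ± 0.29, adjusted p = 0.499). The 24 h call ended without MEKi replicate 1 or 2 or DMSO replicate 2 or 3 and in 1 fit of all 12 arrays (adjusted p = 0.154).

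Cebpb, which encodes a C/EBP protein that can pair with ATF4, had 10.38, 10.70 and 11.04 in MEKi and 11.16, 10.67 and 11.73 in DMSO at 72 h, with overlap (-0.48 ± 0.24, adjusted p = 0.313). At 24 h it had 8.85, 8.80 and 8.77 in MEKi and 9.54, 9.43 and 9.40 in DMSO. The 24 h groups were apart, and Cebpb was lower in MEKi by a log2 difference of -0.65 ± 0.07 (adjusted p = 0.0023), a call that ended in 1 fit of all 12 arrays. Atf5, an ATF4 relative that is itself induced by the response, had 11.02, 11.30 and 11.27 in MEKi and 11.30, 11.03 and 11.57 in DMSO at 72 h, and 8.89, 9.02 and 8.71 in MEKi and 9.29, 9.17 and 9.15 in DMSO at 24 h. It rose by 2.32 ± 0.11 in MEKi and 2.10 ± 0.13 in DMSO (adjusted p = 4.35e-06 and 5.32e-05), with every 72 h array above every 24 h array. Atf5 had no call for MEKi in the fits as reported, and at 24 h it was called lower with median-centred arrays, among other alternatives. Atf3, a stress-induced repressor, rose by 1.77 ± 0.22 in MEKi and 1.68 ± 0.30 in DMSO, and Cebpg, a C/EBP partner of ATF4, by 0.83 ± 0.17 and 1.14 ± 0.22.

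All 6 stress effectors and feedback genes rose at least 2-fold with time in MEKi and in DMSO. Trib3, a pseudokinase that binds and restrains ATF4, had 10.44, 10.64 and 11.60 in MEKi and 11.62, 11.05 and 12.17 in DMSO at 72 h. At 24 h it had 7.89, 7.79 and 7.50 in MEKi and 8.31, 7.97 and 8.00 in DMSO. Its rise was 8.98-fold in MEKi and 11.5-fold in DMSO (adjusted p = 4.02e-05 and 6.90e-05), the largest of the module in MEKi. MEKi differed from DMSO by -0.72 ± 0.32 at 72 h and -0.37 ± 0.12 at 24 h (adjusted p = 0.239 and 0.114).

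Ddit4 encodes REDD1, an inhibitor of the growth kinase complex mTORC1. It had 9.81, 9.81 and 10.55 in MEKi and 11.14, 11.01 and 11.32 in DMSO at 72 h, and 8.71, 8.75 and 8.85 in MEKi and 8.16, 8.36 and 8.35 in DMSO at 24 h. The groups were apart at both times and in opposite order. Ddit4 was lower in MEKi at 72 h (-1.10 ± 0.18, adjusted p = 0.0074) and higher in MEKi at 24 h (0.48 ± 0.08, adjusted p = 0.0102), although the 24 h call ended in 1 fit of all 12 arrays (adjusted p = 0.0892). With time it rose 2.44-fold in MEKi and 7.29-fold in DMSO (adjusted p = 0.00065 and 4.15e-06).

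Chac1, which breaks down glutathione, had 10.59, 10.38 and 11.51 in MEKi and 11.14, 10.94 and 11.58 in DMSO at 72 h, and 8.94, 8.94 and 8.51 in MEKi and 9.17, 8.79 and 8.83 in DMSO at 24 h. It rose 4.08-fold in MEKi and 4.89-fold in DMSO (adjusted p = 0.000391 and 7.95e-05), and MEKi and DMSO overlapped at both times. Eif4ebp1, whose protein holds back cap-dependent translation, had 11.94, 12.06 and 12.10 in MEKi and 12.21, 11.98 and 12.37 in DMSO at 72 h, and 10.85, 10.77 and 10.59 in MEKi and 11.27, 11.01 and 11.11 in DMSO at 24 h. The groups overlapped at 72 h (-0.15 ± 0.11, adjusted p = 0.495), and Eif4ebp1 was lower in MEKi at 24 h (-0.39 ± 0.09, adjusted p = 0.0383). The 24 h call of Eif4ebp1 ended without any 1 of the 6 arrays. Sesn2, a leucine sensor that inhibits mTORC1, rose by 1.27 in both MEKi and DMSO, and Ppp1r15a, which encodes the eIF2 phosphatase subunit GADD34, by 1.72 ± 0.13 in MEKi and 2.08 ± 0.35 in DMSO.

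**Figure D3:**
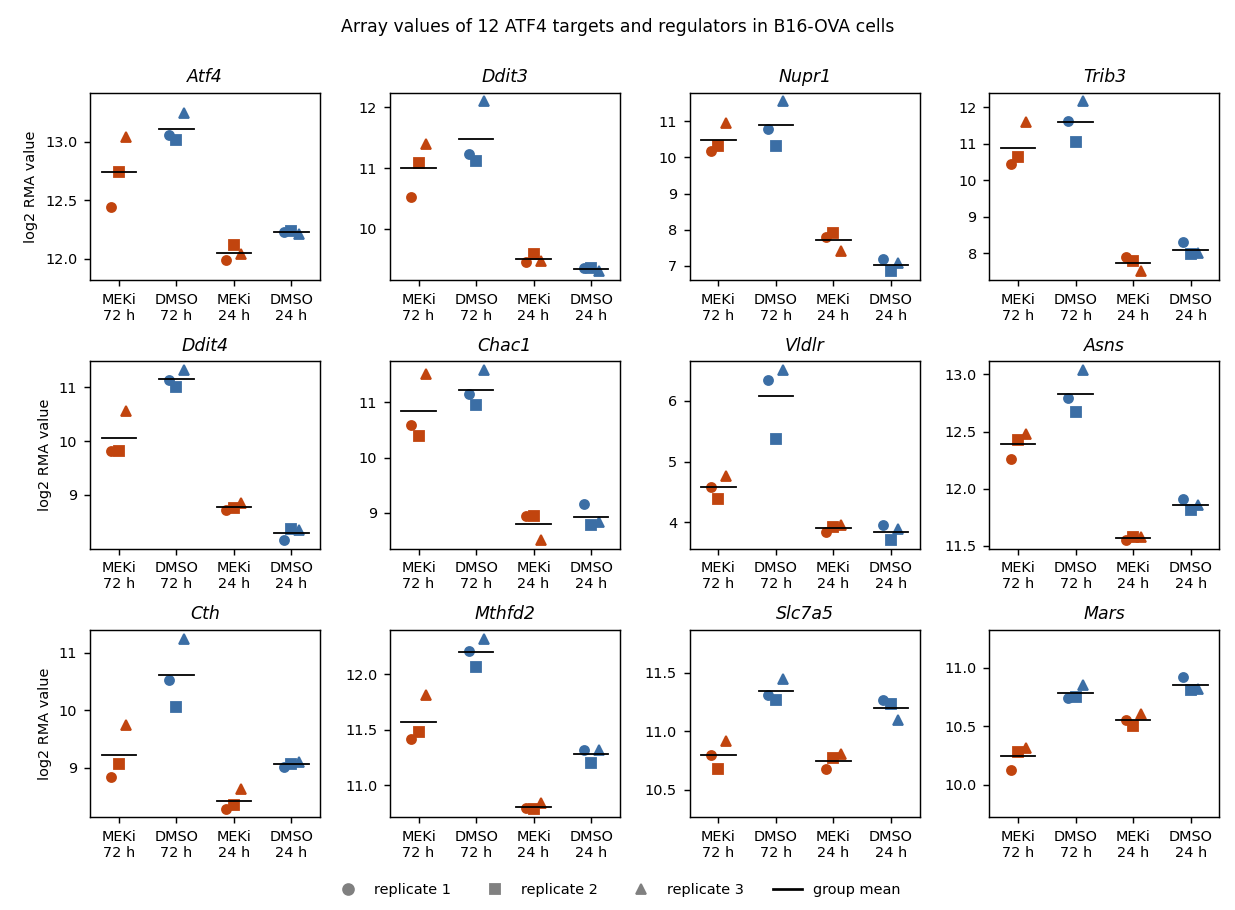
Log2 RMA value (vertical axis) of 12 members on each of the 12 arrays, by group (horizontal axis); points are arrays, with the replicate number by symbol, and lines are group means. Ddit4 lies below DMSO in MEKi at 72 h and above DMSO in MEKi at 24 h, and Vldlr reaches 5.37 to 6.51 only in DMSO at 72 h.

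Of the 3 secreted and surface targets, Vldlr moved and the other 2 were not called by their brightest probe set. Vldlr, a receptor for lipoproteins, had 4.59, 4.38 and 4.77 in MEKi and 6.35, 5.37 and 6.51 in DMSO at 72 h, and 3.85, 3.92 and 3.96 in MEKi and 3.96, 3.71 and 3.89 in DMSO at 24 h. The DMSO arrays at 72 h stood above all 9 others. The log2 difference of MEKi from DMSO was -1.50 ± 0.25 at 72 h (adjusted p = 0.00745) and 0.06 ± 0.08 at 24 h (adjusted p = 0.738), and the rise with time was 0.67 ± 0.10 in MEKi and 2.22 ± 0.25 in DMSO (adjusted p = 0.00121 and 0.000461). Vldlr is dim, and over its 6 probe sets the difference at 72 h was between -1.72 and -0.01, with 2 of the 6 called. With the mean over those probe sets it was -0.71 (adjusted p = 0.0525).

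Fgf21, a secreted metabolic hormone, had 5.01, 4.58 and 4.71 in MEKi and 4.90, 4.63 and 5.64 in DMSO at 72 h, and 4.88, 4.97 and 4.73 in MEKi and 4.87, 4.85 and 4.45 in DMSO at 24 h, so all groups overlapped. Its log2 difference with time was -0.09 ± 0.12 in MEKi and 0.33 ± 0.23 in DMSO (adjusted p = 0.597 and 0.338), and it was too dim to be kept among the brighter probe sets, so a change could have gone unseen. Stc2, a secreted glycoprotein, had differences of 0.12 ± 0.11 in MEKi and 0.11 ± 0.10 in DMSO over time. In MEKi, 1 of its 3 probe sets was called higher with time, and so was the mean over them.

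The synthesis enzymes showed the most calls with MEKi. Of the 10 measured, 8 were lower in MEKi at 72 h and 8 at 24 h, with median log2 differences of -0.57 and -0.34, and none was higher. These counts fell to 4 at 72 h without MEKi replicate 1 or 2 and to 5 without DMSO replicate 1, and to 4 at 24 h without any 1 array other than MEKi replicate 3 and in 1 fit of all 12 arrays. With time 9 rose in MEKi and 10 in DMSO, with medians of 0.78 and 0.95. Asns, asparagine synthetase, had 12.26, 12.43 and 12.48 in MEKi and 12.79, 12.67 and 13.04 in DMSO at 72 h, and 11.55, 11.58 and 11.58 in MEKi and 11.91, 11.81 and 11.86 in DMSO at 24 h. The 4 groups of Asns did not overlap. It was lower in MEKi by -0.44 ± 0.11 at 72 h and -0.29 ± 0.06 at 24 h (adjusted p = 0.0411 and 0.0236), and it rose 1.77-fold in MEKi and 1.96-fold in DMSO (adjusted p = 0.000113 and 0.000296). The calls with MEKi ended on leaving out any 1 of 5 arrays at each time (all but DMSO replicate 2 at 72 h and all but MEKi replicate 3 at 24 h), with adjusted p of up to 0.148 and 0.0923.

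Cth, cystathionine gamma-lyase, which makes cysteine, had 8.83, 9.07 and 9.75 in MEKi and 10.52, 10.06 and 11.25 in DMSO at 72 h, and 8.28, 8.35 and 8.62 in MEKi and 9.01, 9.06 and 9.10 in DMSO at 24 h. It had the largest MEKi difference of the enzymes at both times, -1.39 ± 0.29 at 72 h and -0.64 ± 0.09 at 24 h (adjusted p = 0.0198 and 0.00727). The MEKi arrays lay below the DMSO arrays at both times. The 72 h call of Cth ended without MEKi replicate 1 or 2 or DMSO replicate 1 (adjusted p of up to 0.0849), and with a trended and robust prior (adjusted p = 0.125), and the 24 h call ended in 1 fit of all 12 arrays (adjusted p = 0.162). With the replicate block the 72 h value had an adjusted p of 0.00167 by limma.

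Serine synthesis runs through Phgdh, Psat1 and Psph. Psat1, its aminotransferase, had 11.14, 11.37 and 11.37 in MEKi and 11.80, 11.88 and 11.75 in DMSO at 72 h, and 10.95, 10.94 and 11.06 in MEKi and 11.46, 11.50 and 11.39 in DMSO at 24 h. Every MEKi array was below every DMSO array at its time, and at 72 h the MEKi arrays were all below the 24 h DMSO arrays too. The log2 difference was -0.52 ± 0.09 at 72 h and -0.47 ± 0.07 at 24 h (adjusted p = 0.00981 and 0.00658). Phgdh, the first enzyme, differed by -0.41 ± 0.10 and -0.34 ± 0.07 (adjusted p = 0.0333 and 0.0289), with all 4 of its probe sets called lower at each time. Psph, the last, had -0.46 ± 0.12 at 72 h (adjusted p = 0.0538) and was lower in MEKi at 24 h (-0.32 ± 0.06, adjusted p = 0.0167). The call of Phgdh at 72 h ended without replicate 1 or 2 of MEKi or 1 or 3 of DMSO, and the 24 h calls of Phgdh and Psph held without MEKi replicate 3 alone.

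Shmt2 and Mthfd2 carry the folate steps in mitochondria that turn serine into glycine and one-carbon units. Shmt2 had 10.68, 10.77 and 10.71 in MEKi and 11.30, 11.27 and 11.65 in DMSO at 72 h, and 10.65, 10.58 and 10.58 in MEKi and 11.15, 10.98 and 11.06 in DMSO at 24 h. All 6 MEKi arrays of Shmt2 lay below all 6 DMSO arrays, with log2 differences of -0.69 ± 0.11 at 72 h and -0.46 ± 0.07 at 24 h (adjusted p = 0.00603 and 0.00745). Mthfd2 had 11.42, 11.48 and 11.81 in MEKi and 12.21, 12.06 and 12.32 in DMSO at 72 h, and 10.80, 10.79 and 10.84 in MEKi and 11.32, 11.20 and 11.32 in DMSO at 24 h. Its groups were apart at both times, by -0.63 ± 0.12 and -0.47 ± 0.06 (adjusted p = 0.0122 and 0.00562), and the 72 h call ended without MEKi replicate 1 or 2 (adjusted p of up to 0.0598). The rise of Shmt2 with time was 0.12 ± 0.07 in MEKi and 0.34 ± 0.11 in DMSO (adjusted p = 0.269 and 0.0491), and that of Mthfd2 was 0.76 ± 0.10 and 0.92 ± 0.09.

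Gpt2, a mitochondrial alanine aminotransferase, had 8.94, 8.89 and 9.20 in MEKi and 9.98, 9.57 and 10.02 in DMSO at 72 h, and 8.01, 8.03 and 7.96 in MEKi and 8.41, 8.25 and 8.18 in DMSO at 24 h. It was lower in MEKi at 72 h by -0.85 ± 0.13 (adjusted p = 0.00579) and had -0.28 ± 0.07 at 24 h (adjusted p = 0.0562), with the arrays apart at each time. Aldh18a1, which starts proline synthesis, was lower by -0.66 ± 0.11 at 72 h and -0.35 ± 0.09 at 24 h (adjusted p = 0.00788 and 0.049), and its 24 h call ended without any 1 of the 6 arrays. Aldh1l2, a mitochondrial folate enzyme, was the enzyme with no call for MEKi at either time. It had 9.99, 10.16 and 10.21 in MEKi and 10.31, 9.70 and 10.88 in DMSO at 72 h, and 8.95, 8.80 and 8.60 in MEKi and 8.75, 8.59 and 8.64 in DMSO at 24 h, and it rose 2.53-fold in MEKi and 3.11-fold in DMSO (adjusted p = 3.59e-05 and 0.0015).

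**Figure D4:**
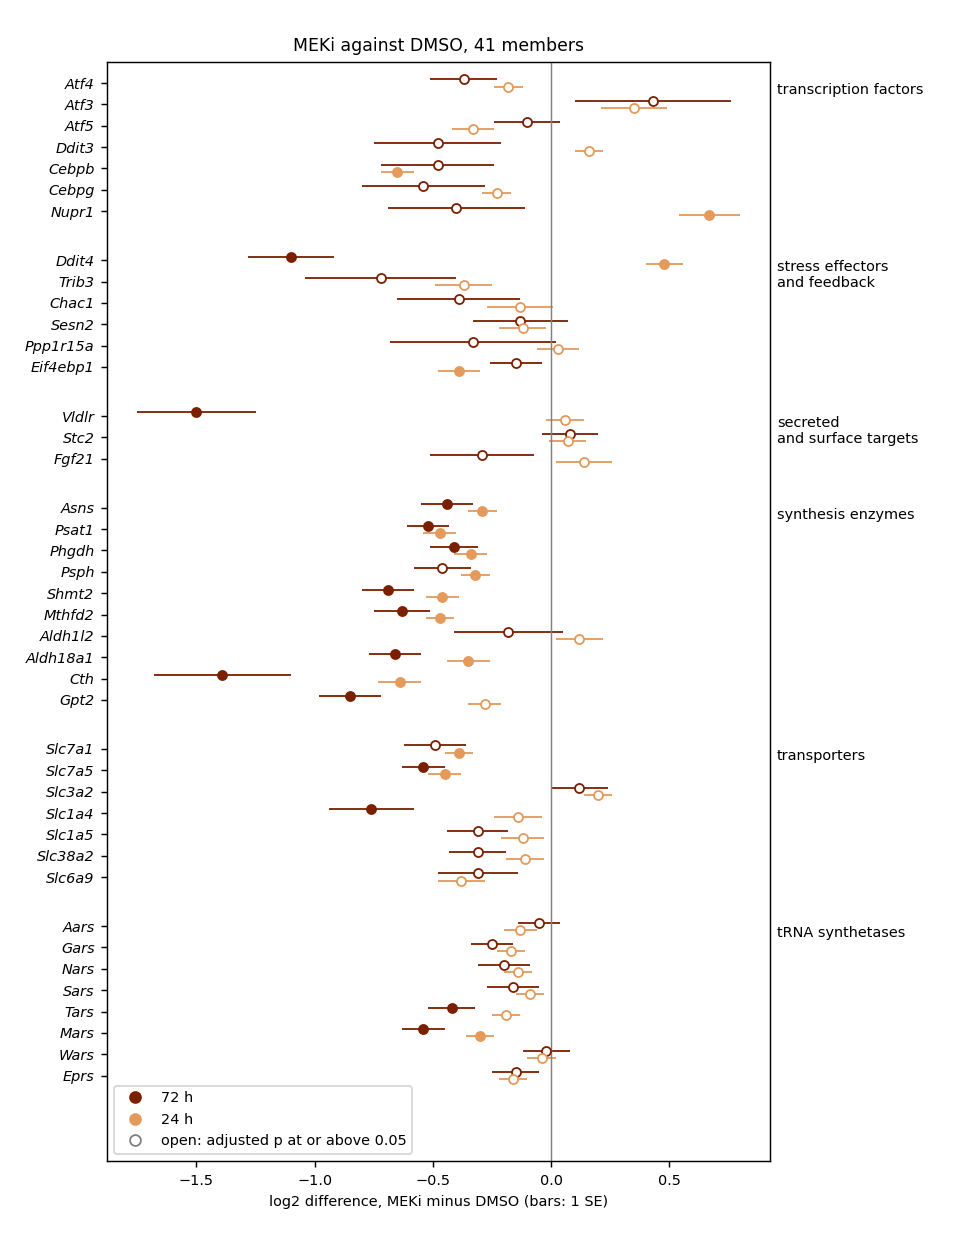
Log2 difference of MEKi minus DMSO (horizontal axis) for the 41 measured members by role, at 72 h and at 24 h; points are estimates, bars 1 SE, and filled points have an adjusted p under 0.05. Of the 10 enzymes, 8 have filled points left of 0 at each time, and Nupr1 and Ddit4 at 24 h are the filled points right of 0.

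The transporters split by their change with time. Slc7a5, the light chain of the LAT1 exchanger for leucine and other large neutral amino acids, had 10.80, 10.68 and 10.92 in MEKi and 11.31, 11.27 and 11.45 in DMSO at 72 h, and 10.68, 10.77 and 10.81 in MEKi and 11.27, 11.23 and 11.10 in DMSO at 24 h. All MEKi arrays lay below all DMSO arrays, with differences of -0.54 ± 0.09 at 72 h and -0.45 ± 0.07 at 24 h (adjusted p = 0.00848 and 0.00995). The change of Slc7a5 with time was 0.05 ± 0.09 in MEKi and 0.14 ± 0.08 in DMSO (adjusted p = 0.728 and 0.245). The 24 h call ended without MEKi replicate 1, at an adjusted p of 0.0503.

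Slc7a1, the cationic amino acid transporter CAT1, had 11.33, 11.38 and 11.78 in MEKi and 11.92, 11.88 and 12.15 in DMSO at 72 h, and 11.48, 11.45 and 11.53 in MEKi and 11.88, 11.89 and 11.87 in DMSO at 24 h. It had a difference of -0.49 ± 0.13 at 72 h (adjusted p = 0.052) and was lower in MEKi at 24 h (-0.39 ± 0.06, adjusted p = 0.00778), with arrays apart at both times and no call over time by its brightest probe set. Over its 3 probe sets the 72 h difference was between -0.49 and 0.05, with 1 called lower. With time in MEKi, 1 of the 3 was called higher. Slc3a2, the heavy chain that LAT1 and the cystine exchanger share, had 0.12 ± 0.12 at 72 h and 0.20 ± 0.06 at 24 h (adjusted p = 0.631 and 0.0744).

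Slc1a4, a transporter of serine, alanine and other small neutral amino acids, had 8.10, 8.10 and 8.75 in MEKi and 9.10, 8.84 and 9.30 in DMSO at 72 h, and 7.63, 7.69 and 7.34 in MEKi and 7.72, 7.60 and 7.75 in DMSO at 24 h. It rose 1.70-fold in MEKi and 2.62-fold in DMSO (adjusted p = 0.00956 and 0.000132) and was lower in MEKi at 72 h (-0.76 ± 0.18, adjusted p = 0.0318). That call ended without MEKi replicate 1 or 2 or DMSO replicate 1 or 3, with adjusted p of up to 0.132. Slc6a9, a glycine transporter, had 8.61, 8.74 and 8.91 in MEKi and 9.08, 8.68 and 9.44 in DMSO at 72 h, and 7.49, 7.54 and 7.39 in MEKi and 8.08, 7.67 and 7.81 in DMSO at 24 h. It rose 2.43-fold in MEKi and 2.32-fold in DMSO (adjusted p = 2.92e-05 and 0.0016), with overlap of MEKi and DMSO at 72 h.

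Slc1a5, a transporter of glutamine, had 9.23, 9.29 and 9.27 in MEKi and 9.54, 9.32 and 9.86 in DMSO at 72 h, and 8.53, 8.63 and 8.68 in MEKi and 8.69, 8.89 and 8.61 in DMSO at 24 h. It rose by 0.65 ± 0.07 in MEKi and 0.84 ± 0.14 in DMSO (adjusted p = 0.000252 and 0.00235). Slc38a2, the SNAT2 transporter of small neutral amino acids, rose in DMSO (0.48 ± 0.10, adjusted p = 0.00714) and had 0.28 ± 0.10 in MEKi (adjusted p = 0.0826).

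The tRNA synthetases, which load amino acids onto their tRNAs, were mixed over time. Of the 8, 5 rose and 1 fell in MEKi, and 5 rose in DMSO, with median log2 differences of 0.28 and 0.35. Sars, for serine, had 12.15, 12.32 and 12.36 in MEKi and 12.43, 12.27 and 12.61 in DMSO at 72 h, and 11.48, 11.48 and 11.58 in MEKi and 11.64, 11.56 and 11.61 in DMSO at 24 h. Aars, for alanine, had 11.96, 12.14 and 12.12 in MEKi and 12.11, 12.02 and 12.25 in DMSO at 72 h, and 11.25, 11.19 and 11.28 in MEKi and 11.48, 11.29 and 11.35 in DMSO at 24 h. The times were apart for both genes, with rises of 1.70-fold and 1.78-fold in MEKi and 1.78-fold and 1.69-fold in DMSO for Sars and Aars in that order. MEKi and DMSO overlapped for both at 72 h.

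Mars, for methionine, had 10.12, 10.28 and 10.31 in MEKi and 10.74, 10.75 and 10.85 in DMSO at 72 h, and 10.55, 10.50 and 10.60 in MEKi and 10.92, 10.81 and 10.82 in DMSO at 24 h. It was lower in MEKi by -0.54 ± 0.09 at 72 h and -0.30 ± 0.06 at 24 h (adjusted p = 0.00609 and 0.0266). It was the member called lower with time in MEKi (-0.31 ± 0.08, adjusted p = 0.0183), while in DMSO it had -0.07 ± 0.07 (adjusted p = 0.531). That fall was not called without MEKi replicate 1 or 3 at 24 h or MEKi replicate 1 at 72 h, and its 24 h call with MEKi ended without any 1 of 5 arrays (all but MEKi replicate 3).

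Tars, for threonine, had 10.82, 10.97 and 11.10 in MEKi and 11.32, 11.28 and 11.54 in DMSO at 72 h, and 10.87, 10.84 and 10.92 in MEKi and 11.10, 11.04 and 11.07 in DMSO at 24 h. It was lower in MEKi at 72 h (-0.42 ± 0.10, adjusted p = 0.0418), a call that held without MEKi replicate 3 alone of the 6 arrays. Nars, for asparagine, had 12.39, 12.55 and 12.64 in MEKi and 12.68, 12.55 and 12.94 in DMSO at 72 h, and 12.22, 12.21 and 12.18 in MEKi and 12.40, 12.34 and 12.28 in DMSO at 24 h. It rose by 0.32 ± 0.08 in MEKi and 0.38 ± 0.10 in DMSO (adjusted p = 0.0188 and 0.0254). Gars, for glycine, rose by 0.30 ± 0.07 and 0.38 ± 0.08, Eprs, for glutamate and proline, rose in MEKi (0.25 ± 0.07, adjusted p = 0.0301) and had 0.24 ± 0.10 in DMSO, and Wars, for tryptophan, had -0.13 ± 0.09 in MEKi and -0.15 ± 0.08 in DMSO.

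The effect of MEKi at 72 h minus that at 24 h was called lower for 2 of the 41 members and higher for 0, beside 2.10% lower and 1.97% higher of all genes (6 and 0 members at an unadjusted p under 0.05, by limma). At that unadjusted p, 1738 of all 18194 genes were lower and 1662 higher. The 2 called members were Ddit4, with -1.58 ± 0.23 (adjusted p = 0.00339), and Vldlr, with -1.55 ± 0.30 (adjusted p = 0.015). Both kept their call without each of the 12 arrays in turn. With the mean over its probe sets, Vldlr had -0.73 (adjusted p = 0.0921), and at 24 h it was too dim for an effect to be seen with confidence. With the replicate number as a block 5 were called, and Nupr1 (-1.07, adjusted p = 0.0232), Cth (-0.75, adjusted p = 0.044) and Gpt2 (-0.57, adjusted p = 0.0328) joined them. That block joins arrays by number, which was not established to mark pairs at 72 h and was not judged to at 24 h. Atf4 had -0.19 ± 0.17, Asns -0.15 ± 0.13, Ddit3 -0.64 ± 0.32 and Trib3 -0.35 ± 0.40 in this contrast, with adjusted p of 0.659, 0.648, 0.363 and 0.752 by limma. These misses do not show that the effect was alike at both times. Over the 3 probe sets of Atf4 the contrast was between -0.19 and 0.10.

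Members with the promoter motif were compared with the others as a description. Of the 11 measured members with TGATGNAA in the window, 9 rose with time in MEKi and 10 in DMSO, with median log2 differences of 0.82 and 1.39. Of the 23 measured members with a window and no match, 17 rose in MEKi and 18 in DMSO, with medians of 0.76 and 0.88. With MEKi against DMSO at 72 h, 4 of the 11 and 8 of the 23 were lower, with medians of -0.40 and -0.46, and the 2 sets overlapped in range in every comparison.

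Among 11 further amino acid response targets, 6 rose and 3 fell with time in MEKi, and 6 rose and 2 fell in DMSO. Slc7a11, the cystine exchanger xCT, had 8.43, 9.37 and 8.91 in MEKi and 7.86, 7.43 and 7.91 in DMSO at 72 h, and 4.78, 4.70 and 5.19 in MEKi and 5.53, 5.78 and 5.71 in DMSO at 24 h. Its groups were apart at both times but, unlike those of the called enzymes, it was higher in MEKi at 72 h (1.17 ± 0.21, adjusted p = 0.0103) and lower at 24 h (-0.78 ± 0.13, adjusted p = 0.0112), and the difference of the effects was 1.95 ± 0.28 (adjusted p = 0.00362). Pck2, a mitochondrial carboxykinase, had 10.54, 10.61 and 10.97 in MEKi and 11.50, 11.31 and 11.65 in DMSO at 72 h, and was lower in MEKi at 72 h (-0.78 ± 0.13, adjusted p = 0.00722) and at 24 h (-0.35 ± 0.09, adjusted p = 0.0429). Vegfa, an angiogenic growth factor, was lower in MEKi at 72 h by -0.65 ± 0.16 (adjusted p = 0.0405).

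The other lists are read beside all genes. Of these, 13.5% rose and 16% fell with time in MEKi, and 14.2% rose and 16.9% fell in DMSO. With MEKi against DMSO, 5.14% of all genes were called lower at 72 h and 5.86% at 24 h. Of 14 measured eIF2 kinases, eIF2 subunits and eIF2B subunits and GCN2 partners, 0 rose and 3 fell with time in MEKi, and 1 rose and 6 fell in DMSO. Impact, an inhibitor of GCN2 activation, was higher in MEKi by 0.83 ± 0.09 at 72 h and 0.66 ± 0.08 at 24 h (adjusted p = 0.0014 and 0.00495). Of 11 other cytosolic tRNA synthetases, 2 rose and 0 fell with time in MEKi and 2 rose and 4 fell in DMSO, and 3 were lower in MEKi at 72 h and 5 at 24 h. Of 19 other enzymes of serine, glycine, proline and related amino acids, 1 rose and 4 fell with time in MEKi and 1 rose and 7 fell in DMSO, among them Shmt1, the cytosolic counterpart of Shmt2, which fell by 0.83 in MEKi and fell by 0.64 in DMSO. Of 21 ER chaperone and XBP1 genes, which serve the unfolded protein response, 4 rose and 1 fell with time in MEKi and 2 rose and 0 fell in DMSO, with median log2 differences of 0.10 and 0.08. At 72 h, 1 of these 21 was called higher in MEKi than in DMSO and 0 were lower, and at 24 h 3 were higher and 0 lower. Of all genes, 4.03% were called higher with MEKi at 72 h and 5.01% at 24 h. The log2 difference lay above 0 for 20 of the 21 at 72 h (median 0.20) and for all 21 at 24 h (median 0.17). At an unadjusted p under 0.05, by limma, 5 were higher at 72 h and 13 at 24 h. Of all 18194 genes, 9626 lay above 0 at 72 h and 9409 at 24 h. At that unadjusted p, 2052 of all genes were higher at 72 h and 2361 at 24 h.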

How the data were processed

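RNA of 12 B16-OVA samples was read on Affymetrix whole-genome mouse arrays. Per the labels, 200 ng of total RNA was labelled with a 3′ IVT kit. The authors normalized the arrays by robust multichip averaging (RMA), per their methods in the software Chipster, and the deposited values are log2 RMA signals with 2 decimals, from 2.21 to 14.47. Software versions are not given in the sources used here. RMA makes array distributions alike, so a change shared by most genes is not seen, and dim genes are compressed.

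Groups came from the sample titles. Of 45101 probe sets, 64 controls were left out of the tests, and of the 45037 others 34945 were paired with 1 gene, 932 with several and 9160 with none. Each comparison was a limma fit (version 3.58.1, R 4.3.3) with empirical Bayes moderation, two-sided, on its own 6 arrays, or on all 12 for the difference of the effects, with Benjamini-Hochberg adjustment over 45037 probe sets and a threshold of 0.05. Errors are moderated SEs. The workflow was tested on simulated data. For MEKi against DMSO it recovered 2 of 50 simulated 1.25-fold changes at 24 h and 1 of 50 at 72 h. At 1.5-fold it recovered 28 and 25 of 50, and at 2-fold 47 and 48. Small changes could thus have gone uncalled. The members and lists were chosen with earlier results of these data known. Array values are given for Atf4, Ddit3, Trib3 and Asns, for up to 3 called members per role and comparison by size (MEKi against DMSO at each time, and time in DMSO), for up to 6 called in the difference, and for some others named after their values were seen, such as Fgf21.

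Whether equal replicate numbers mark pairs was judged from each array's deviations from its group mean. For numbers 1, 2 and 3, the MEKi and DMSO deviations had r = 0.189, 0.163 and 0.130 in the 72 h arrays. In the 24 h arrays r was 0.073, 0.125 and 0.151, so the numbers pair the samples at 72 h by the rule used (every pair over 0.1) and not at 24 h. Arrays of unlike number and unlike time reached r = 0.172 and 0.155, in the range of the 72 h values. The rule therefore does not establish that the 72 h arrays were paired. Alternatives were a replicate block, all 12 arrays in 1 fit, brighter probe sets, median-centred arrays, quantile normalization again, a trended and robust prior, array weights, averaging all probe sets of a gene, and dropping each array in turn.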

Additional observations from a re-analysis of the deposited data

Results flagged for a closer look

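For 2 members the difference of the MEKi effects passed its own test. The effect at 72 h minus that at 24 h was -1.58 for Ddit4 and -1.55 for Vldlr. Ddit4 was lower in MEKi at 72 h and higher at 24 h, with groups apart each time. Vldlr was lower in MEKi at 72 h and had 0.06 at 24 h, where all arrays were at 3.96 or less, too dim for an effect to be seen with confidence, so its difference mainly restates the 72 h value. With the mean over the probe sets of Vldlr the difference was -0.73 (adjusted p = 0.0921 by limma).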

How the results depend on the processing

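No called difference of a member changed sign under any alternative run. Uncalled differences did for 8 members with MEKi at 72 h, 6 with MEKi at 24 h, 3 with time in MEKi, 0 with time in DMSO and 14 in the difference of the effects. With all 12 arrays in 1 fit, 8 members were lower and 0 higher in MEKi at 24 h, against 13 and 2 as reported. With brighter probe sets 21 were lower there, and with a trended and robust prior 23. At 72 h the count lower with MEKi stayed within 1.5 times the 14 reported under each such alternative, and the counts higher with time likewise. With quantile normalization again, 0 members fell with time in MEKi, against 1. For the difference of the effects, 5 members were lower with the replicate block, 5 with array weights and 1 with the mean over probe sets, against 2. The replicate block also added Atf3 at 24 h, as higher in MEKi, and ended no call, although the numbers were not judged to mark pairs at 24 h. Nor was pairing established at 72 h. Leaving out 1 array gave 6 to 11 lower and 1 to 3 higher in MEKi at 24 h, 8 to 16 lower at 72 h, 0 to 1 falling with time in MEKi and 2 to 4 lower in the difference. With 2 arrays left in a group, fewer arrays carry each test. The cause of the other changes was not tested. Vldlr and Fgf21 were too dim to enter the fit of brighter probe sets.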
